A study of Homo sapiens with 6 samples.

Results

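RBFOX3, SYT1, GAD1, SLC17A7, SLC1A3, ALDH1L1 and MBP are commonly used to mark neurons, astrocytes and oligodendrocytes, and here their transcripts were followed in a breast cancer line. They were taken by symbol from the deposited gene table, where each of the 7 genes had its own entry among 17721 listed. All 7 passed the low-count filter, together with 13003 genes in all. The cells were MDA-MB-231BR, derived from the breast cancer line MDA-MB-231 for its growth in the brain, and were grown as monocultures without brain cells. One group carried a control short hairpin RNA (shRNA) and the other an shRNA against ACSS2, the enzyme that makes acetyl-CoA from acetate. In both groups the hairpins were delivered with lentivirus from HEK-293T cells and kept under antibiotic selection for 3 days. The cells are described as expressing them stably. Each group had 3 libraries that the labels call biological replicates, numbered 1 to 3 in both groups by a batch tag. How many hairpin sequences were used, and whether the lines are clones or pools, is not stated in the labels.

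In the nervous system these genes divide by role. RBFOX3 encodes NeuN, a splicing regulator of mature neurons, and SYT1 encodes synaptotagmin-1, the calcium sensor that triggers release of synaptic vesicles. GAD1 makes the inhibitory transmitter GABA from glutamate, and SLC17A7 (VGLUT1) loads glutamate into vesicles. SLC1A3 (GLAST) takes glutamate up into astrocytes, ALDH1L1 is a folate enzyme used as an astrocyte marker, and MBP is a structural protein of myelin that also has transcripts (the Golli forms) outside the oligodendrocyte lineage.

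Libraries held between 15048275 and 18608124 counts, with 15062 to 15465 genes above 0. ACSS2 itself was measured at 76.3, 71.2 and 164 CPM (counts scaled to library size with TMM factors) in control libraries 1, 2 and 3, and at 11.1, 50.5 and 88.7 CPM in the ACSS2 shRNA libraries with the same numbers. It was lower in 3 of 3 pairs, but the groups overlapped, since ACSS2 shRNA library 3 exceeded 2 of the control libraries. Libraries with the same number deviated together across genes (correlations of 0.736, 0.556 and 0.763 over 13003 genes, which are not independent replicates). Results are therefore given from a fit without the number (unpaired) and from one with the number as a block (paired). The paired fit left a biological coefficient of variation of 11.8%, against 26.6% without the block. For ACSS2 itself edgeR gave a log2 fold change of -1.05 ± 0.64 (SE) unpaired (adjusted p = 0.504). Paired, it was -1.31 ± 0.30 (adjusted p = 0.00757).

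The upstream windows of 5 of the genes are shown because 4 of them were called in the paired fit and the other, GAD1, had counts per TPM that moved between libraries. Each is the 250 bases before a transcript start in RefSeq (GRCh38.p14), 5′ to 3′ on the gene's strand, and for each gene it is the window richest in CpG. Capitals mark matches, on either strand, to TATAAA of the core promoter, to the Sp1-type element GGGCGG, to the CCAAT element, or to 1 of 3 spellings of an E2F element, which are TTTCGCGC and TTTGGCGC and also TTTCCCGC. In ALDH1L1 the GGGCGG matches at -65 and -61 overlap and run together. The windows lie at chr17:79609162-79609411 (minus strand) for RBFOX3, chr12:78864524-78864773 (plus) for SYT1, chr2:170816637-170816886 (plus) for GAD1, chr3:126180587-126180836 (minus) for ALDH1L1 and chr18:77132784-77133033 (minus) for MBP.
RBFOX3: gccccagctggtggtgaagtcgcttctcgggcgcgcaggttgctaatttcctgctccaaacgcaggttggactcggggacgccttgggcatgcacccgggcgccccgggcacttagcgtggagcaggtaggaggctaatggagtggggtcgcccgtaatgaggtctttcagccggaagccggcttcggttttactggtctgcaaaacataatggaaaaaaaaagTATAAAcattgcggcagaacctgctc
SYT1: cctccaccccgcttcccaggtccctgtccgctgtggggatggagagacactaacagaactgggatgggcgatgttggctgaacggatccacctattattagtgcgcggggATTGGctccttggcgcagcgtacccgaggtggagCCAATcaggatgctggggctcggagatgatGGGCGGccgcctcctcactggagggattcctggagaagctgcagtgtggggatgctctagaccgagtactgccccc
GAD1: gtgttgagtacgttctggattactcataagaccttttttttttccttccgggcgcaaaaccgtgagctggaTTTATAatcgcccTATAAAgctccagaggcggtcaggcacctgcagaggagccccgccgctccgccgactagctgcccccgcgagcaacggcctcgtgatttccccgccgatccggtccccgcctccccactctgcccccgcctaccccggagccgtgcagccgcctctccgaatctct
ALDH1L1: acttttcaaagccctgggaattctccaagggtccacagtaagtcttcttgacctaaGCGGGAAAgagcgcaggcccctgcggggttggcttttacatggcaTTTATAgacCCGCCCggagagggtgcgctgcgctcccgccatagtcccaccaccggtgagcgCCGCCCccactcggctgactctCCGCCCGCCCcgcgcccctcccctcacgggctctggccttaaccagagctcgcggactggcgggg
MBP: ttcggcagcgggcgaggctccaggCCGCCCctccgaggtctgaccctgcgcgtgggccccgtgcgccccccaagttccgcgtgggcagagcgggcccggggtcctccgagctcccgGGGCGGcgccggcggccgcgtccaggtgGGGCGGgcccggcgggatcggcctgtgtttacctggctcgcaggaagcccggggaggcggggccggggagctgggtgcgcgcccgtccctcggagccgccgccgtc

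The window of MBP held 36 CpG at 80.4% GC, that of GAD1 23, that of ALDH1L1 20, that of RBFOX3 17 and that of SYT1 13. The windows of SYT1, GAD1, ALDH1L1 and MBP lie inside the GENCODE 29 gene, and that of RBFOX3 lies upstream of it, inside the span that the deposited table gives. The median over all 35116 RefSeq windows of this length was 11 CpG and 58% GC. RBFOX3 held TATAAA at -26, counted from the transcript start, and GAD1 held it at -179 and -166. Those letters occurred in 10.7% of all windows and in 6 of the 22 windows of the 7 genes, in RBFOX3, GAD1 and ALDH1L1. RBFOX3 supplied 12 of the 22, and some of its windows overlap and share the same TATAAA. The 22 windows are therefore not independent, and their counts are not compared with the shares of all windows. The E2F letters occurred in 2.32% of all windows and, among the 7 genes, in ALDH1L1 alone, at -194. GGGCGG occurred in 42.6% of windows and in 8 of the 22, and CCAAT in 32.0% and in 4 of the 22, in RBFOX3, SYT1, SLC17A7 and SLC1A3. The E-box CACGTG (6.34% of windows) was in 1 window of RBFOX3, and the AP-1 element TGACTCA (4.20%) in 1 of SLC1A3. The cyclic AMP response element (TGACGTCA, 1.65% of windows) and both parts searched of the RE1 element, TCAGCACC (1.32%) and GGACAGCG (1.26%), were in none of the 22, which says only that these letters are absent from these windows. A match is a description of the letters and not a measured binding site.

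Where the counted reads lie bears on how each gene is read. Coordinates are those of the deposited table, on GRCh38. SYT1 spans chr12:78863993-79503396 and GAD1 chr2:170806719-170862801, both on the plus strand, and an antisense gene, AC007405.2, lies across the printed window of GAD1. SLC17A7, at chr19:49429398-49442955 on the minus strand, overlaps no other gene of GENCODE 29, and SLC1A3 spans chr5:36581801-36717127 on the plus strand, overlapped by 2 antisense genes. RBFOX3 (chr17:79086574-79665600), ALDH1L1 (chr3:126103561-126197758) and MBP (chr18:76555900-77140316) are listed on the plus strand, whereas GENCODE 29 places them on the minus strand. The same held for 42.9% of the 8443 minus-strand genes that could be matched, and for 0 of 8637 plus-strand genes the other way round, so the strand printed in the table is not that of the gene in these cases. The table's span for MBP is 3.77 times the GENCODE one and takes in ZNF236, a protein-coding gene with its own entry, and overlaps 9 antisense or long intergenic RNA genes. No source used here states whether the libraries kept strand, and only whole gene spans were compared, not exons. Whether reads from these antisense partners were counted for RBFOX3, SYT1, GAD1, SLC1A3, ALDH1L1 or MBP is therefore not known. The span of RBFOX3 also overlaps the end of ENGASE, a protein-coding gene with its own entry.

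By TPM (transcript levels scaled for length, which allow genes to be compared), MBP stood far above the rest. Its mean over the 6 libraries was 51.1 TPM, higher than 83.8% of the listed genes. The order below it was RBFOX3 at 8.64, GAD1 at 6.07, SLC1A3 at 4.64, ALDH1L1 at 3.73, SYT1 at 2.04 and SLC17A7 at 0.425 TPM. The lowest library of MBP, 30.8 TPM, lay above the highest of any other of the genes, 21.3 TPM for RBFOX3. From RBFOX3 to SYT1 the ranges of neighbours overlapped, and the highest library of SLC17A7, 0.67 TPM, overlapped only the lowest of SYT1, 0.37 TPM. Within libraries more of the order held: SLC17A7 was the lowest of the 7 in 6 of 6 libraries, and SYT1 was below RBFOX3, GAD1 and SLC1A3 in 6 of 6 and below ALDH1L1 in 4. RBFOX3 was above GAD1 in 4 of 6, GAD1 above SLC1A3 in 4 and SLC1A3 above ALDH1L1 in 4, so the order among those 4 genes changed between libraries.

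**Figure D1:**
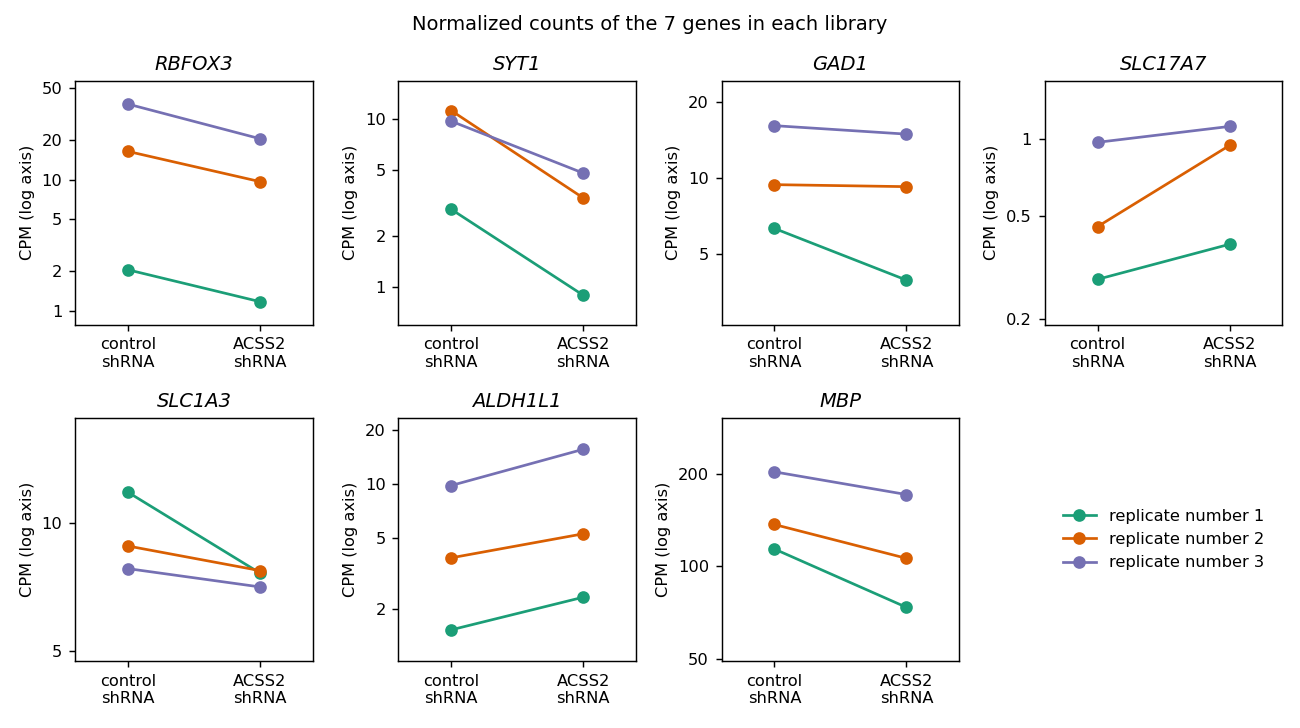
CPM of the 7 genes (vertical axis, log scale, a separate range for each gene) in the 3 control shRNA and 3 ACSS2 shRNA libraries, with lines joining libraries of the same replicate number. The lines of RBFOX3 run nearly parallel over a wide range of levels, those of ALDH1L1 and SLC17A7 slope upward, and the groups fail to overlap for SLC1A3 alone.

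In the unpaired comparison of ACSS2 shRNA with control shRNA, edgeR called 0 of the 7 genes, against 9 of all 13003 genes (0.0692%). No gene of the 7 had an unadjusted p under 0.05 in that fit, DESeq2 called 0 of the 7 with 1 at an unadjusted p under 0.05, and limma on log2 TPM called 0 with 0. In the paired fit RBFOX3, SYT1 and MBP fell and ALDH1L1 rose, while GAD1, SLC17A7 and SLC1A3 did not pass. Those 3 lower calls stand against 12.4% of all genes tested called lower in that fit, and the 1 higher call against 12.7% called higher. With 7 genes these shares correspond to about 1 gene in each direction, and no test was made of the difference. The median log2 fold change of the 7 genes was -0.33 paired, beside 0.02 over all genes tested.

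RBFOX3 varied more between libraries than any other of the 7 genes. It was measured at 2.05, 16.5 and 37.9 CPM in control libraries 1, 2 and 3 and at 1.17, 9.68 and 20.6 CPM in the matching ACSS2 shRNA libraries, from 36, 289 and 587 counts and 21, 154 and 332 counts. Both libraries numbered 1 were low and both numbered 3 high, so the groups overlapped widely, with a 32.4-fold range from the lowest library to the highest. Within the pairs the difference was nearly constant, at log2 ratios of -0.81, -0.77 and -0.88. The unpaired log2 fold change was -0.84 ± 1.03 (SE, n = 3 per group, adjusted p = 0.760), and the paired one was -0.82 ± 0.15 (adjusted p = 0.00221), a level 1.77-fold lower with the ACSS2 hairpin. The call held in each of the 3 paired fits that left out 1 replicate number, with values from -0.89 to -0.78, but not in the paired limma fit on log2(TPM + 1), where it was -0.57 with adjusted p = 0.0769.

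SYT1 had the largest paired difference of the 7 genes. Control libraries 1, 2 and 3 held 2.90, 11.3 and 9.75 CPM, and the ACSS2 shRNA libraries 0.891, 3.39 and 4.78 CPM, from 51, 198 and 151 and from 16, 54 and 77 counts. The ACSS2 shRNA library was below its partner in 3 of 3 pairs, by log2 ratios of -1.71, -1.73 and -1.03, but control library 1 lay below 2 of the ACSS2 shRNA libraries, so the groups overlapped. The fold change was -1.40 ± 0.65 on the log2 scale unpaired (adjusted p = 0.384) and -1.44 ± 0.22 paired (adjusted p = 0.000793), which is 2.72-fold lower. SYT1 was the only one of the 7 genes that passed in all 5 paired fits on the 6 libraries, including limma on log2(TPM + 1) at -0.81 (adjusted p = 0.0393), and it passed in all 3 paired fits that left out a number.

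GAD1 did not pass in either fit. Its levels were 6.32, 9.41 and 16.1 CPM in control libraries 1, 2 and 3 and 3.95, 9.24 and 14.9 CPM with the ACSS2 hairpin, from 111, 165 and 249 and from 71, 147 and 240 counts. The values again followed the replicate number, and pairs 2 and 3 were nearly level, with log2 ratios of -0.03 and -0.11 beside -0.68 in pair 1. The log2 fold change was -0.18 ± 0.50 unpaired (adjusted p = 0.906) and -0.24 ± 0.17 paired (adjusted p = 0.333). Leaving out control library 3 turned the unpaired value to 0.25, and leaving out ACSS2 shRNA library 1 turned it to 0.17.

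The steps between libraries differed for GAD1 between TPM and CPM, although the order of the libraries was nearly the same. By TPM the control libraries held 5.64, 5.70 and 8.60 and the ACSS2 shRNA libraries 3.21, 5.42 and 7.86, so that control libraries 1 and 2 were level where their CPM were not. Counts per TPM, which follow the effective length that the authors' quantification gave the gene, set relative to the median gene of each library, were 0.626, 1.00 and 1.04 in control libraries 1, 2 and 3 and 0.788, 1.08 and 1.09 in the ACSS2 shRNA libraries. Both libraries numbered 1 had the lowest values, and the highest was 1.74 times the lowest. Over the 9552 genes with at least 100 counts and over 1 TPM in every library the median of highest over lowest was 1.02, and 0.241% of them reached the value of GAD1, which itself had fewer than 100 counts in 1 library. The table gives 26 transcripts for GAD1, and the counts per transcript were not analysed here.

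SLC17A7 was near the limit of detection. Control libraries held 0.285, 0.456 and 0.969 CPM and ACSS2 shRNA libraries 0.390, 0.943 and 1.12 CPM, from 5, 8 and 15 and from 7, 15 and 18 counts. It was higher with the ACSS2 hairpin in 3 of 3 pairs (log2 ratios of 0.45, 1.05 and 0.21), with overlapping groups, and did not pass: 0.52 ± 0.61 unpaired (adjusted p = 0.748) and 0.54 ± 0.41 paired (adjusted p = 0.362). At this depth a difference of that size was not resolved.

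**Figure D2:**
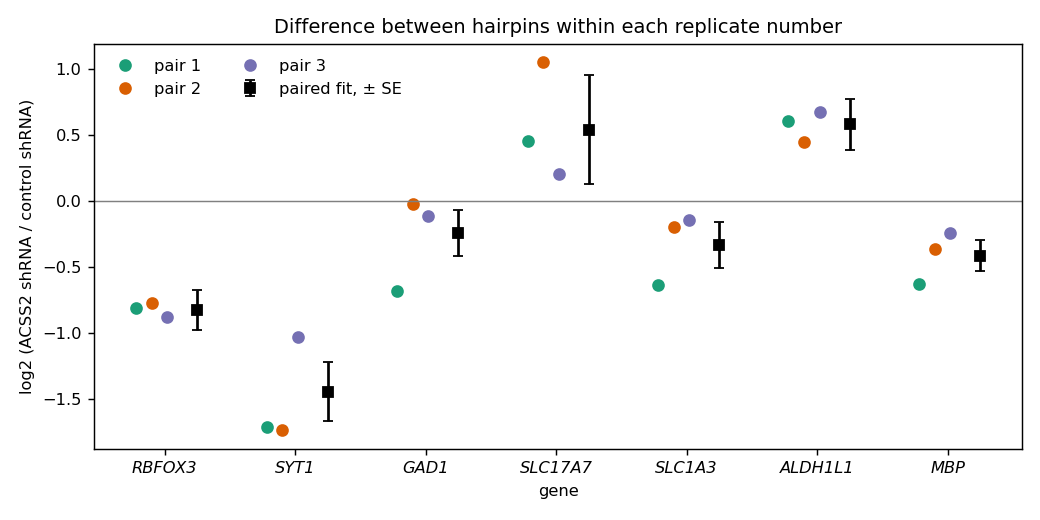
Log2 ratio of ACSS2 shRNA over control shRNA (vertical axis) for each gene within replicate numbers 1, 2 and 3 (coloured points), with the paired estimate and its SE (black squares). All 3 points lie below 0 for RBFOX3, SYT1, GAD1, SLC1A3 and MBP and above 0 for SLC17A7 and ALDH1L1, and RBFOX3 has the tightest points, between -0.88 and -0.77.

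Of the glial genes, SLC1A3 was the only one of the 7 genes whose groups did not overlap in CPM, a pattern shown by 20.3% of all genes tested. Control libraries 1, 2 and 3 held 11.8, 8.84 and 7.81 CPM, and ACSS2 shRNA libraries 7.63, 7.73 and 7.07 CPM, from 208, 155 and 121 and from 137, 123 and 114 counts. The gap between the lowest control and the highest ACSS2 shRNA library, 7.81 against 7.73 CPM, was small, and control library 1 stood above the rest. By TPM the groups overlapped, with 4.19 in control library 3 below 4.5 and 4.6 in ACSS2 shRNA libraries 1 and 2. The log2 fold change was -0.35 ± 0.24 unpaired (adjusted p = 0.571) and -0.33 ± 0.17 paired (adjusted p = 0.183), so neither fit called it.

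ALDH1L1 was the one gene of the 7 called higher. Its levels were 1.54, 3.88 and 9.82 CPM in control libraries 1, 2 and 3 and 2.34, 5.28 and 15.6 CPM in the ACSS2 shRNA libraries, from 27, 68 and 152 and from 42, 84 and 252 counts. As with RBFOX3, both libraries numbered 3 were highest and both numbered 1 lowest, and the pair ratios were alike, at 0.60, 0.45 and 0.67 on the log2 scale. The unpaired value was 0.61 ± 0.78 (adjusted p = 0.770), and the paired value 0.58 ± 0.19 (adjusted p = 0.0432), which is 1.49-fold higher. The paired call was the least secure of the 4: DESeq2 with the block gave 0.55 with adjusted p = 0.165, paired limma gave 0.50 with adjusted p = 0.0796, and the call was lost when any 1 of the 3 numbers was left out (adjusted p from 0.0530 to 0.277).

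MBP was by far the most abundant, so its counts carry the least counting error. Control libraries 1, 2 and 3 held 114, 137 and 203 CPM and ACSS2 shRNA libraries 73.5, 106 and 171 CPM, from 1999, 2399 and 3143 and from 1321, 1689 and 2760 counts. Each ACSS2 shRNA library was below its partner, by log2 ratios of -0.63, -0.37 and -0.25, and the groups overlapped because ACSS2 shRNA library 3 exceeded 2 control libraries. The log2 fold change was -0.37 ± 0.33 unpaired (adjusted p = 0.668) and -0.41 ± 0.12 paired (adjusted p = 0.0220), or 1.33-fold lower. The paired call was kept without number 3 (-0.50, adjusted p = 0.0158) and lost without number 1 (-0.31, adjusted p = 0.0622), without number 2 (-0.47, adjusted p = 0.0797) and in paired limma (-0.27, adjusted p = 0.110). ZNF236, inside the table's span of MBP, had a paired log2 fold change of -0.18 ± 0.14 (adjusted p = 0.360).

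The authors' deposited table, made with DESeq2, gave fold changes of the same sign for all 7 genes and called none of them. In the authors' deposited table the log2 fold change of SYT1 was -1.42 with q = 0.276, that of RBFOX3 -0.86 with q = 0.977, that of MBP -0.39 with q = 0.838 and that of ALDH1L1 0.59 with q = 0.943. These values lie next to the unpaired ones above. In bulk RNA, fewer cells with a transcript and less of the transcript per cell cannot be told apart for any of the genes.

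For 6 of the 7 genes, all but SLC1A3, the replicate number took a larger share of the spread than the hairpin. There are 3 numbers and 2 hairpin groups, so a larger share is expected for the number even without an effect. In the paired fit the number passed for 5 of the 7 genes (RBFOX3, SYT1, GAD1, ALDH1L1 and MBP), beside 38.7% of all genes tested. RBFOX3 had the lowest adjusted p among them, 3.78e-07, and in libraries numbered 3 it was 18.5-fold above number 1 with the control hairpin and 17.6-fold with the ACSS2 hairpin. Its fitted log2 difference between numbers 3 and 1, 4.17, was exceeded by 10 of the 13003 genes. ALDH1L1 followed at 2.70 (adjusted p = 2.78e-05), with 6.38-fold and 6.69-fold in the 2 groups. The corresponding difference was 2.02 for SYT1 (adjusted p = 0.000414), 1.61 for GAD1 (adjusted p = 0.000479) and 1.02 for MBP (adjusted p = 0.000556). SLC17A7 (adjusted p = 0.0635) and SLC1A3 (adjusted p = 0.346) did not pass. What the numbers stand for beyond the label batch is not stated, and its part in these levels was not tested.

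**Figure D3:**
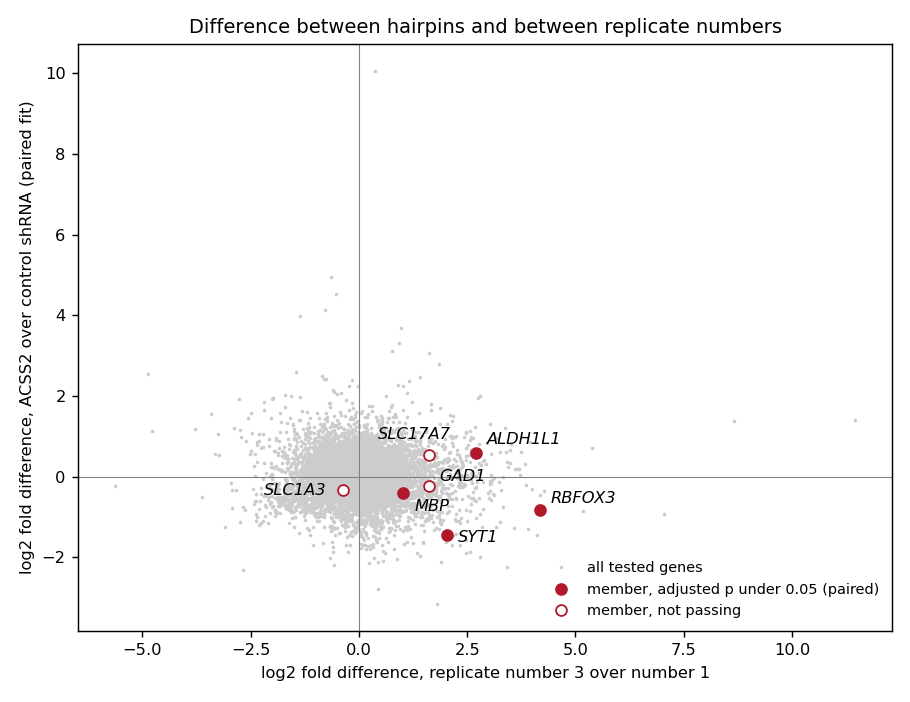
Fitted log2 difference between replicate numbers 3 and 1 (horizontal axis) against that between ACSS2 shRNA and control shRNA (vertical axis, paired fit) for all 13003 genes tested (grey) and the 7 genes (red, filled where adjusted p was under 0.05 for the hairpin). RBFOX3 lies far to the right at 4.17 and SYT1 lowest of the 7 at -1.44, while SLC1A3 is the only one of the 7 left of 0.

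The spread over the 6 libraries was also divided between number and hairpin. The number took 94.8% of the sum of squares of log2(CPM + 0.5) for RBFOX3 and the hairpin 5.11%. For ALDH1L1 the number took 93.6% and for MBP 78.4%. SYT1 was divided more evenly, with 60.0% for the number and 38.4% for the hairpin. For SLC1A3 the hairpin took 43.9%, the number 35.4% and the remainder 20.7%. Over all genes tested the medians were 60.1% for the number, 20.3% for the hairpin and 9.57% for the remainder.

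**Figure D4:**
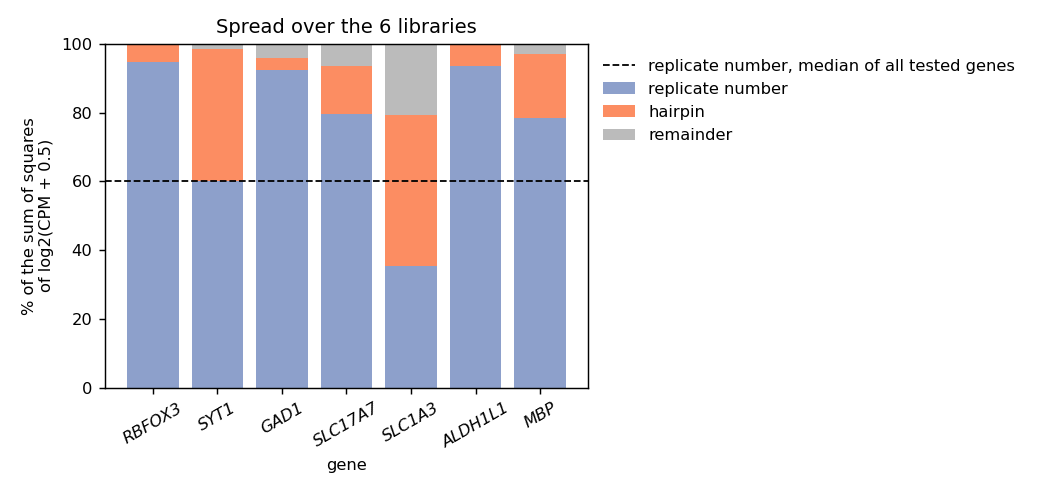
Share of the sum of squares of log2(CPM + 0.5) over the 6 libraries (vertical axis, percent) that falls to the replicate number, the hairpin and the remainder for each gene, with the median share of the number over all tested genes as a dashed line. The number's share is 94.8% for RBFOX3 and 35.4% for SLC1A3, against a median of 60.1%.

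Genes whose levels followed those of the 7 most closely were sought among 10695 genes of at least 5 CPM. The measure was Pearson's r of log2(CPM + 0.5) over the 6 libraries, which share 3 numbers and 2 hairpin groups. The 3 closest to RBFOX3 were RHBDD1 (0.997), SLC4A7 (0.996) and PPM1J (0.996), and those to SYT1 were PRR16 (0.997), IER5 (0.995) and RPL23 (0.995). BCL11A (0.999), PNMA2 (0.998) and MYO1D (0.995) were closest to MBP. MAGED1 (0.996), CSNK1E (0.995) and TMEM120A (0.993) were closest to ALDH1L1, and POU6F1 (0.996), CUEDC2 (0.994) and FGFR4 (0.994) to GAD1. For SLC1A3 they were PLAU (0.994), PPIA (0.993) and C20orf27 (0.992). With 6 points and this many genes searched, high values are to be found for most profiles, and they are given as descriptions. SLC17A7, below 1 CPM, was left out.

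Around the 7 genes, the wider families were read from the paired fit. Over all lists other than the 7 genes themselves, 26 of 94 tested genes (27.7%) passed there, beside 25.1% of all genes tested in either direction (12.7% higher and 12.4% lower, the shares to set beside each list below). With the block, DESeq2 called 19 of 162 list genes (11.7%), beside 14.9% of all genes, and limma 14 of 161 (8.70%), beside 8.48%. The unpaired edgeR fit called 0 of the 94, of which 13 had an unadjusted p under 0.05, a count given without its share over all genes. Unpaired DESeq2 called 4 of 162 (2.47%), beside 199 higher and 288 lower among 16885 genes. Unpaired limma on log2(TPM + 1) called 0 of 161, beside 2 higher and 5 lower among 16917 genes. In the RBFOX family RBFOX2, a splicing regulator found in many tissues, was the more abundant, at 50.9 ± 2.14 TPM in the control and 67.6 ± 6.63 TPM in the ACSS2 shRNA libraries (SD, n = 3). Its paired log2 fold change of 0.30 ± 0.11 did not pass (adjusted p = 0.0678). RBFOX1 was below the filter.

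Of 17 synaptotagmins, 8 were tested, with 1 called higher and 2 lower in the paired fit. DESeq2 with the block called 1 of 12 and limma with the block 3 of 12. SYT12 rose by 0.90 ± 0.26 on the log2 scale (adjusted p = 0.0230), and SYT11, below 1 TPM, fell by 1.04 (adjusted p = 0.0174), as did SYT1. SYT17, the most abundant at 13.1 ± 0.85 TPM in the control libraries, had a value of 0.37 ± 0.13 (adjusted p = 0.0563). Of 17 genes for vesicle fusion 9 were tested, 3 being called higher and 3 lower, while with the block DESeq2 called 3 of 15 and limma 2 of 15. STX1A, a syntaxin of the fusion complex, rose by 0.78 ± 0.15 (adjusted p = 0.00283), from 34.8 ± 11.7 to 62.3 ± 7.55 TPM. RAB3A, a GTPase of vesicles, fell by 0.56 on the log2 scale (adjusted p = 0.0147), and CPLX1, a complexin that clamps fusion, fell by 0.70 (adjusted p = 0.0295). Among those below 1 TPM in both groups, UNC13A rose and RIMS1 fell. SNAP25, the neuronal partner of syntaxin in that complex, had 0 counts in all 6 libraries.

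In the pathway of GABA, 4 of 9 genes were tested and 0 were called by edgeR with the block, with 1 at an unadjusted p under 0.05. ALDH5A1, which completes GABA breakdown, was at 7.04 ± 1.79 TPM in the control libraries and 6.83 ± 0.74 TPM in the ACSS2 shRNA libraries. Of 3 vesicular glutamate transporters SLC17A7 was the only one tested. Among 22 glutamate receptor genes 7 were tested, with 2 called higher and 0 lower, and DESeq2 and limma with the block called 1 each. GRIK4, a kainate receptor subunit, rose by 0.98 ± 0.19 (adjusted p = 0.00310), from 1.89 ± 0.23 to 3.73 ± 0.70 TPM, and GRM5, below 1 TPM, rose by 1.28 ± 0.34 (adjusted p = 0.0159). GRIN2D, an NMDA receptor subunit, was the highest at 5.77 ± 3.15 TPM in the control libraries and did not pass (adjusted p = 0.298).

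In the family of SLC1A3, 4 of 7 genes were tested and edgeR with the block called 0, with 1 at an unadjusted p under 0.05. SLC1A5, which exchanges glutamine and other neutral amino acids, dominated the family at 224 ± 60.5 TPM in the control and 231 ± 46.0 TPM in the ACSS2 shRNA libraries (paired -0.05 ± 0.12, adjusted p = 0.778). SLC1A2, the main glutamate carrier of astrocytes, was below the filter. Of 10 genes for glutamate and glutamine metabolism 8 were tested and 0 were called in the paired fit, with 3 at an unadjusted p under 0.05. GPT2, a mitochondrial transaminase, came nearest at 0.34 ± 0.12 (adjusted p = 0.0510). DESeq2 with the block also called 0 in these 3 lists, as did limma with the block.

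Of 16 enzymes of one-carbon folate metabolism, 15 were tested, with 2 called higher and 2 lower. DESeq2 with the block called 4 of 16 and limma with the block 1 of 16. ALDH1L1, which oxidizes formyl-tetrahydrofolate, was among those called higher. TYMS, which uses folate to make thymidylate, fell by 0.72 on the log2 scale (adjusted p = 0.00362), and SHMT1, the cytosolic serine hydroxymethyltransferase, fell by 0.44 (adjusted p = 0.0213). The median paired value of the 15 was -0.09, beside 0.02 over all genes tested. SHMT2, the mitochondrial form and the most abundant at 259 ± 33.3 TPM in the control libraries, did not pass (-0.14 ± 0.13, adjusted p = 0.483).

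**Figure D5:**
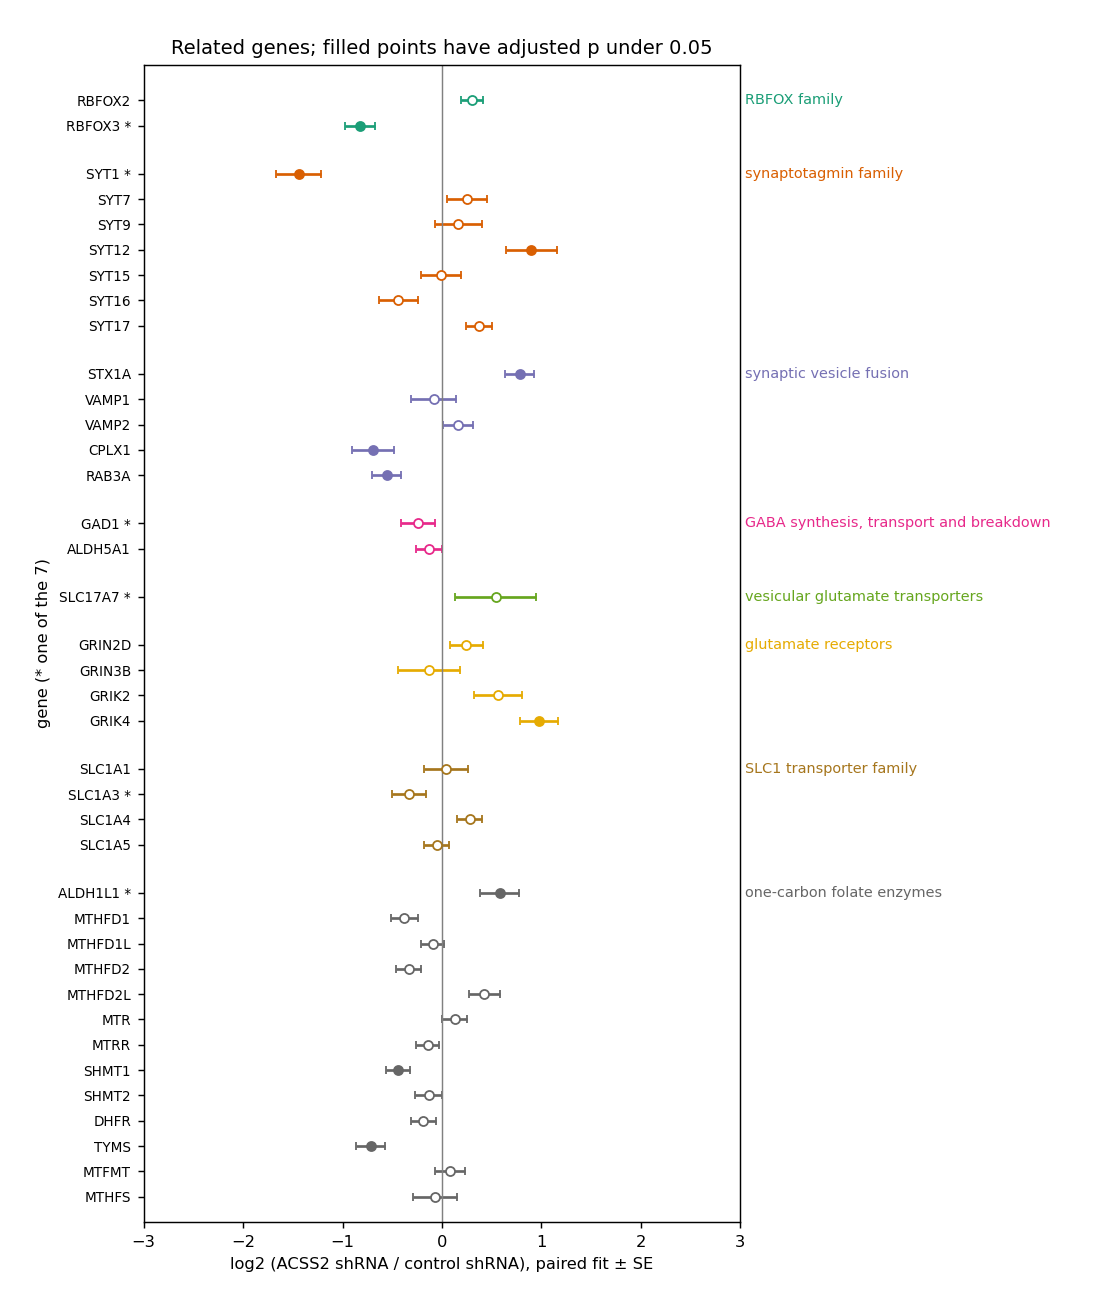
Paired log2 difference between ACSS2 shRNA and control shRNA (horizontal axis) with its SE for the 7 genes (asterisks) and tested genes of their families that reached a mean of 1 TPM in either group, filled where adjusted p was under 0.05. Filled points lie on both sides of 0, from SYT1 at -1.44 to GRIK4 at 0.98.

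The 7 genes were read beside wider marker lists, to see which other features of these cell types the line held. Of 30 neuronal markers, 11 were tested and 9 had a mean of at least 1 TPM. The paired edgeR fit called 5 of the 11, DESeq2 with the block 3 of 22 and limma with the block 4 of 22. ELAVL2 and SNAP25 were at 0 counts in all 6 libraries, and NEFM, NEFH, DCX, STMN2 and INA had at most 1 count in any of them. Other markers of the list were clearly present. TUBB3, a tubulin, was at 148 ± 45.9 TPM in the control libraries, CALB2 at 146 ± 17.4 TPM and ENO2 at 75.9 ± 19.6 TPM. In the ACSS2 shRNA libraries TUBB3, CALB2 and ENO2 had means of 166, 159 and 102 TPM. MAPT was lower, at 11 TPM in the control and 9.32 TPM in the ACSS2 shRNA libraries. Besides RBFOX3 and SYT1, MAP2 was called lower in the paired fit (-0.89 ± 0.24, adjusted p = 0.0170), whereas L1CAM (1.22 ± 0.17, adjusted p = 0.000463) and ENO2 (0.34 ± 0.12, adjusted p = 0.0477) were called higher. The summed level of the list was 374 to 469 TPM in the control and 466 to 495 TPM in the ACSS2 shRNA libraries.

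Of 19 astrocyte markers, 9 were tested, and ALDH1L1 was the only one called by edgeR with the block, DESeq2 and limma with the block calling 0. GFAP had between 1 and 7 counts, AQP4 and S100B at most 1. Other markers of the list were clearly present. ALDOC, CLU, GLUL and GJA1 had means of 50.1, 49.9, 23.1 and 22.3 TPM in the control libraries. In the ACSS2 shRNA libraries they had 63.5, 53.1, 22.2 and 27.4 TPM. Most of the list's summed level, 5647 to 5717 TPM in the control and 5695 to 7033 TPM in the ACSS2 shRNA libraries, was VIM, at 5480 ± 38.1 TPM in the control libraries. Of 20 oligodendrocyte and myelin markers, 9 were tested, 3 being called lower and 1 higher. DESeq2 with the block called 4 of 17 and limma with the block 1 of 17. Besides MBP, CSPG4 (-0.46 ± 0.11, adjusted p = 0.00959) and UGT8, which makes the galactolipid of myelin (-0.55 ± 0.15, adjusted p = 0.0180), fell, and PMP22 rose (0.47 ± 0.12, adjusted p = 0.0118). MOBP, OPALIN and ERMN had at most 1 count in any library. CNP and MYRF, by contrast, had means of 44.9 and 29.4 TPM in the control libraries. They had 50.5 and 33.6 TPM in the ACSS2 shRNA libraries and did not pass. The summed level was 243 to 276 TPM in the control and 287 to 304 TPM in the ACSS2 shRNA libraries.

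Other lists gave the frame of the line. Of 13 markers used for MDA-MB-231, 10 had a mean of at least 1 TPM, led by VIM, AXL, KRT19, KRT8 and CD44. ESR1, PGR and CDH1 were below that mean, whereas ERBB2 (28.3 TPM in the control libraries) and EPCAM (3.12 TPM) were above it. The count alone therefore does not identify the line. CD44 (-0.57 ± 0.12, adjusted p = 0.00598) and CAV1 (-0.35 ± 0.11, adjusted p = 0.0348) were called lower in the paired edgeR fit. DESeq2 with the block called 2 of 13 and limma with the block 1 of 13. Of 10 microglial and leukocyte markers 3 were tested and 1 was called, CD14, which rose by 1.30 ± 0.29 (adjusted p = 0.00711), from 2.03 ± 1.43 to 5.33 ± 2.09 TPM. AIF1, CX3CR1 and TYROBP were at 0 to 2 counts. Of 11 endothelial and stromal markers 8 were tested, 3 called higher and 1 lower. DESeq2 with the block called 4 of 11 and limma with the block 2 of 11. The microglial and the endothelial list summed to 384 to 890 and 20.6 to 34.8 TPM in the control libraries. In the ACSS2 shRNA libraries they summed to 415 to 819 and 31.6 to 38.4 TPM, CD68 making up most of the microglial sum. The part of these lists in the values of the 7 genes was not tested. REST, which represses neuronal genes outside the nervous system and was picked after its values were seen, was at 16.2, 18.7 and 21.8 CPM in control libraries 1, 2 and 3 and 27.1, 27.2 and 20.4 CPM in the ACSS2 shRNA libraries, with a paired value that missed the threshold (0.40 ± 0.16, adjusted p = 0.0883).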

How the data were processed

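The 6 RNA libraries of MDA-MB-231BR cells were enriched with oligo(dT) and sequenced on DNBSEQ, per the labels' protocols. The deposited table holds expected counts and TPM made by the authors, and the authors' own DESeq2 comparison (log2 fold change, p-value, q-value). Per the submitters' processing notes, HISAT, Bowtie2 and RSEM were used, with versions and annotation not given in the sources used here. Not used were 6 FPKM columns, 565 lines of spilled annotation text were left out, and 26 symbols turned into dates were restored by gene ID.

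Expected counts as deposited, of which 10.47% to 13.01% per library were not whole, were rounded. The main test was edgeR 4.0.16 (R 4.3.3) with its quasi-likelihood F test and TMM factors after filterByExpr (minimum count 10, minimum total count 15), and Benjamini-Hochberg adjustment over 13003 genes, with a call at adjusted p under 0.05. SE is the absolute log2 fold change over the square root of F. It was repeated with the replicate number as a block. The labels' batch tag gives the numbers, which count as pairing because every same-number correlation exceeded 0.1 (the highest between different numbers was -0.04). Each gene was centred on its group mean, which pushes the correlations between different numbers below 0 when the same-number ones are positive. The -0.04 is therefore not an independent contrast. The number was tested by its coefficients together. Alternatives were RLE factors, DESeq2 1.42.0, no filter, limma 3.58.1 on log2(TPM + 0.1 or 1), a minimum of 1 TPM, and leaving out libraries or numbers. P-values set a difference against the variation left between these libraries, which in the paired fit is what remains after the number. Whether that variation includes separate infections or hairpin sequences is not stated.

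The 7 genes and the lists were chosen with earlier results of these data known. Named were the 7 genes in full, list genes of at least 1 TPM in either group, and, of marker lists, the 5 highest by TPM and those called. ZNF236, ENGASE, REST and list genes called below 1 TPM (SYT11, UNC13A, RIMS1, GRM5) were named after their values were seen. So were the markers given by their counts near 0 and ERBB2, EPCAM, ESR1, PGR and CDH1. A few list genes are counted but not reported here by name. For likeness, the 3 genes with the highest r were named. Upstream windows are from the RefSeq table of GRCh38.p14, spans and neighbours from GENCODE 29.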

Additional observations from a re-analysis of the deposited data

How the results depend on the processing

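Without the block no alternative run on all 6 libraries called any of the 7 genes. With the replicate block (pairing by number) 3 fell and 1 rose in edgeR, with RLE factors and without the filter, 3 and 0 in DESeq2, and 1 and 0 in limma on log2(TPM + 1). Genes called higher and lower numbered 3 and 6 in the unpaired fit, 1657 and 1608 with the block, 1426 and 1691 with RLE factors and the block, 199 and 288 in DESeq2, 1119 and 1390 in DESeq2 with the block, 12 and 27 without the filter, 1599 and 1895 without the filter with the block, and 945 and 490 in limma with the block. Limma without the block called 5 higher at log2(TPM + 0.1) and 6 higher with a minimum of 1 TPM. On the TPM scale the median log2 fold change of all genes lay between 0.11 and 0.12, against 0.02 in the unpaired fit. Leaving out libraries or numbers gave 0 to 1 genes higher and 0 to 5 lower unpaired. With the block, leaving out number 1, 2 or 3 gave 1382, 664 or 1555 higher, 1383, 917 or 1554 lower, and 2, 2 or 3 of the 7 genes lower. The 5030 genes and the 5 of the 7 genes called for the number became 4940 and 5 with RLE factors, and 5531 and 5 without the filter.

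Paired values that passed were, for edgeR, RLE factors, DESeq2 and no filter in turn, -0.82, -0.84, -0.84 and -0.84 for RBFOX3, -1.44, -1.46, -1.48 and -1.46 for SYT1, -0.41, -0.44, -0.44 and -0.44 for MBP, and, without DESeq2, 0.58, 0.56 and 0.56 for ALDH1L1. SYT1 also passed in paired limma, at -0.81. The block changed no other call among the 7 genes. With the block and without number 1, 2 or 3, RBFOX3 had -0.84, -0.89 and -0.78, SYT1 -1.38, -1.30 and -1.72, and MBP passed at -0.50 without number 3. Over all fits that left out a library or a number, log2 fold changes ran from -1.80 to 0.17 for RBFOX3, -1.90 to -0.97 for SYT1, -0.69 to 0.25 for GAD1, 0.20 to 1.11 for SLC17A7, -0.47 to -0.15 for SLC1A3, -0.41 to 1.51 for ALDH1L1 and -0.75 to -0.10 for MBP. The sign turned for RBFOX3 without control library 3 (0.17), for GAD1 without control library 3 (0.25) and without ACSS2 shRNA library 1 (0.17), and for ALDH1L1 without ACSS2 shRNA library 3 (-0.41), all unpaired. The cause was not tested. SLC17A7 rests on 5 to 18 counts per library. Without number 3 it fell below the filter and was not tested, so its range above comes from 8 unpaired and 2 paired fits.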
